A study of Mus musculus with 4 samples.

Results

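Megakaryocyte progenitors, the marrow cells that give rise to platelet-forming megakaryocytes, were described here in leukemic and in control mice. The leukemia was B-ALL, an acute lymphoblastic leukemia of the B lineage. They were cells of a droplet RNA sequencing data set (10x Chromium 3' kit, version 3) that had at least 3070 unique molecular identifiers (UMIs, counted RNA molecules) in all. They also had at least 1 UMI of Pf4, a UMI of at least 2 of 7 further megakaryocyte genes (Itga2b, Vwf, Plek, Treml1, Cavin2, Rab27b and Slc14a1), and UMIs of fewer than 3 of 8 stem cell genes (Hlf, Mecom, Procr, Ly6a, Pdzk1ip1, Fgd5, Hoxb5 and Slamf1). The minimum of 3070 UMIs was the lowest total of any control cell. In all, 957 of 11764 cells met this rule, 500 from the B-ALL environment and 457 from the PBS control.

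In the B-ALL environment, 150000 tumor cells from a lymph node of a leukemic CD45.2 mouse heterozygous for Ebf1 and Pax5 (Ebf1+/-Pax5+/-, line LN768), which encode transcription factors of the B lineage, had been injected by vein into wild-type CD45.1 mice. The PBS control was wild-type CD45.1 mice that had received phosphate-buffered saline. After 3 weeks, KIT+Lin-CD45.2-CD45.1+ bone marrow cells were sorted from both. This gate is set for the hosts' own KIT-bearing progenitors and against the transplanted CD45.2 tumor cells. Whether any tumor cells or their RNA remained was not tested. The age of the animals is not given in the sources used here. Each group has 2 samples in the labels, but a cell cannot be traced to either of them. Each group therefore counts as 1 sample, no difference could be tested, and every interval below covers counting error only, with no spread between mice.

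Megakaryocytes form from stem and progenitor cells under thrombopoietin, a cytokine that signals through JAK2 and the STAT transcription factors. Maturing cells copy their DNA without dividing, load granules with proteins such as platelet factor 4 (the product of Pf4) and von Willebrand factor, and extend proplatelets from their cytoskeleton. Some stem cells already carry megakaryocyte transcripts such as Vwf. GATA1, GATA2, GFI1B and RUNX1 are among the transcription factors of the lineage, which shares its early progenitors with red cells.

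Platelet genes outside the rule were enriched in the chosen cells of both groups. The ratio of the level in the progenitors to that in all other cells was 9.81 in the B-ALL environment and 24.1 in the PBS control for F2rl2, which encodes the thrombin receptor PAR3. It was 8.08 in the B-ALL environment and 20.8 in the PBS control for Gp1bb, a chain of the von Willebrand factor receptor. Ache, Mrvi1, Pde10a and Gucy1b1 were also among the most enriched genes of at least 1 group, and the rule genes Pf4, Treml1, Cavin2, Vwf and Rab27b were there because they chose the cells. Levels here and below are CPM, UMIs summed over a group's cells and scaled to a common library total. The cells were chosen by their expression, so this enrichment is a description.

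The rule also admitted cells with thin evidence. Pf4 had exactly 1 UMI in 30.4% of the progenitors of the B-ALL environment and 31.1% of those of the PBS control. Cells with at least 5 of 8 neutrophil genes should lack Pf4. Outside the progenitors, 6.03% of them in the B-ALL environment and 6.61% in the PBS control had a UMI of it. Their median depths were 17927 and 13690 UMIs. Cells of this kind that met the rule were left out, which lowers these shares. Just inside the rule, the 80 B-ALL environment and 109 control progenitors with 2 further genes held 2.59 and 2.05 Pf4 UMIs per 10000 UMIs. Just outside it, the 100 B-ALL environment and 161 control cells with Pf4 and 1 further gene held 1.21 and 0.945. On the authors' map, neighbors were taken from the same group only. Cells below 3070 UMIs, 190 in the B-ALL environment and 0 in the PBS control, could be neighbors but not progenitors. Of the progenitors, 48.6% in the B-ALL environment and 56.2% in the PBS control had at least 15 other progenitors among their 30 nearest cells. These 243 and 257 cells are called the map core below. No neighbor was a progenitor for 4.60% in the B-ALL environment and 11.8% in the PBS control.

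**Figure D1:**
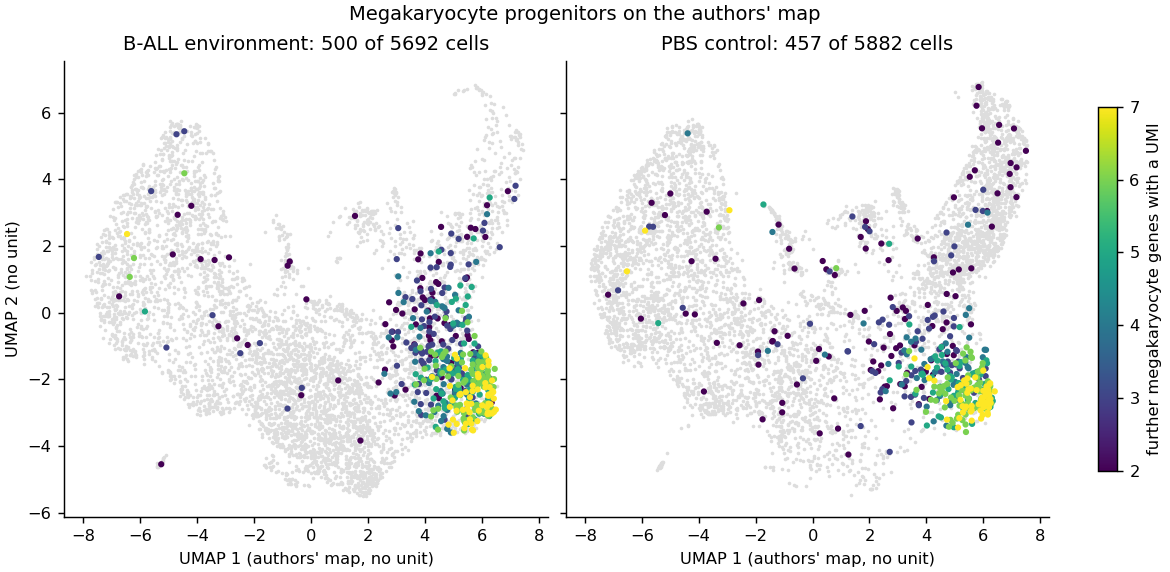
Cells of at least 3070 UMIs on the authors' UMAP, the B-ALL environment on the left and the PBS control on the right; gray points are other cells and colored points the progenitors, by how many of the 7 further megakaryocyte genes had a UMI. Most of the 500 and 457 progenitors lie in 1 region at the lower right, with the cells of 6 to 7 genes at its edge, and the rest are scattered over the map.

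Depth, mitochondrial share and neutrophil RNA differed between the groups; their part in the results below was not tested. The progenitors held 7204733 UMIs in the B-ALL environment and 4672867 in the PBS control, with medians of 12500 and 8922 per cell, while other cells had medians of 10562 and 10396. Mitochondrially encoded genes made up a median of 4.77% of a progenitor's UMIs in the B-ALL environment and 3.26% in the PBS control. At least 3 of 8 neutrophil genes were detected in 26.4% of the progenitors of the B-ALL environment and 88.0% of those of the PBS control. In all other cells that share was 55.2% in the B-ALL environment and 89.5% in the PBS control. With every cell thinned to 3070 UMIs, 6.20% of the B-ALL environment and 42.2% of the control progenitors had 3 neutrophil genes. Of the barcodes, 18 occurred in both groups, 3 of them in progenitors.

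Megakaryocyte progenitors were a similar part of the sorted KIT+Lin- cells of at least 3070 UMIs in both groups. They made up 8.78% (500 of 5692 cells, exact 95% interval 8.06 to 9.55) in the B-ALL environment and 7.77% (457 of 5882, 7.10 to 8.48) in the PBS control. The ratio of the shares was 1.13 (95% counting interval 1.00 to 1.28). It turned on how the cells were drawn: 1.57 without the limit on stem cell genes (829 cells in the B-ALL environment and 544 in the PBS control), 1.74 among cells of at least 10000 UMIs, and 0.977 on the map core. It was 6.67 when cells with 3 markers of another lineage were left out, a step that kept 200 progenitors of the B-ALL environment and 31 of the PBS control. Of the 457 control progenitors, 402 had 3 neutrophil genes, close to the share in other control cells given above; how much of this was free RNA in the droplets was not tested, and the ratio of 6.67 rests on it.

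Within the progenitors, both groups ran from few to many megakaryocyte genes. Exactly 2 further genes were found in 16% of those of the B-ALL environment and 23.9% of those of the PBS control. Among the cells with most of these genes Pf4 was at a lower level in the B-ALL environment. Pf4 and the further genes chose the cells, and how many of them are detected depends on depth, so these values are a description. The cells with 6 to 7 further genes had a median of 17011 UMIs in the B-ALL environment and 9609 in the PBS control, those with 4 to 5 genes 11430 and 7853, and those with 2 to 3 genes 10054 and 9458; the same cells make up every such split below, and the part of depth in them was not tested. Of the progenitors of the B-ALL environment, 35.6% had 2 to 3 further genes, 32.8% had 4 to 5 and 31.6% had 6 to 7. In the PBS control these shares were 40.9%, 26.0% and 33.0%. With 6 to 7 further genes, Pf4 took 20.8 of every 10000 UMIs in the B-ALL environment and 60.2 in the PBS control. With 2 to 3 further genes it took 3.99 in the B-ALL environment and 2.65 in the PBS control. Per cell, Pf4 had a median of 3 UMIs and an upper quartile of 13 in the B-ALL environment, and a median of 5 and an upper quartile of 33 in the PBS control; the highest cells had 345 and 503.

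**Figure D2:**
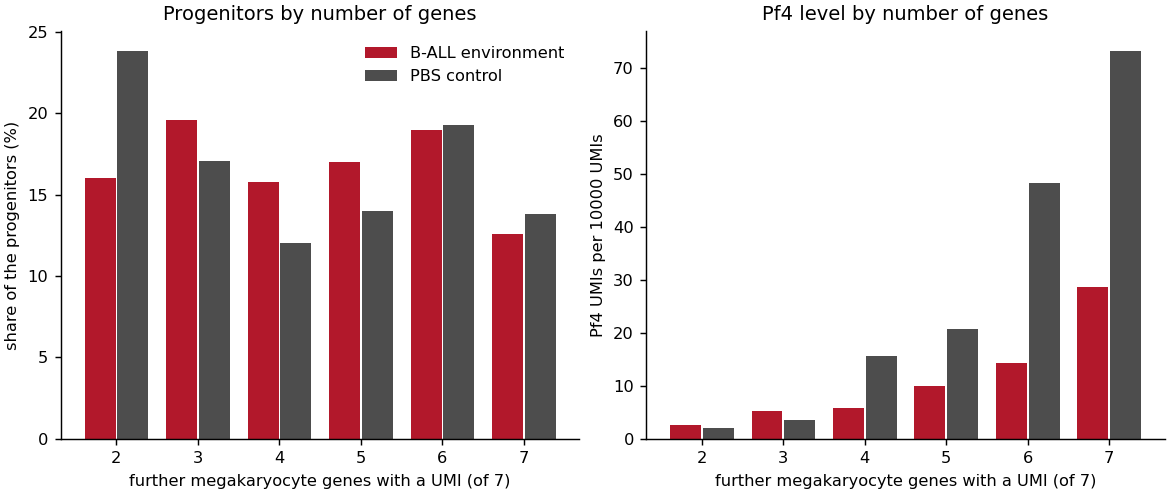
Left, share of each group's progenitors (in percent) by the number of further megakaryocyte genes with a UMI; right, Pf4 UMIs per 10000 UMIs in the same cells. Bars of the B-ALL environment stand left of those of the PBS control. At 7 genes Pf4 reaches 28.7 per 10000 in the B-ALL environment and 73.3 in the PBS control, while at 2 genes both are under 3.

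The genes that chose the cells were, on the whole, lower in the B-ALL environment; since they set who is counted, these values are a description. Pf4 (mouse chromosome 5, 90772435 to 90773383, plus strand, GRCm38) stood at 1246 CPM in the B-ALL environment and 2502 CPM in the PBS control, a log2 fold of -1.01. Treml1, an alpha-granule receptor of platelets, stood at 38.9 CPM in the B-ALL environment and 68.9 in the PBS control (log2 fold -0.83). Rab27b, which serves the secretion of dense granules, stood at 84.4 and 136.9 CPM (-0.70), and the urea transporter gene Slc14a1 at 156.8 and 245.6 CPM (-0.65), the B-ALL environment first in each. Vwf was at 66.8 CPM in the B-ALL environment and 76.0 in the PBS control. Cavin2, a gene of caveolae, was the exception at 246.0 and 197.6 CPM (log2 fold 0.32). The median over the 8 genes was a log2 fold of -0.59 in the progenitors and 1.04 in all other cells.

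A deeper cell can meet the rule at a lower level of each gene, and the rule was also applied after every cell had been thinned to 3070 UMIs. This kept 328 progenitors in the B-ALL environment and 307 in the PBS control. Pf4 then stood at 2391 CPM in the B-ALL environment and 4485 CPM in the PBS control, a log2 fold of -0.91 (-0.98 to -0.84). Treml1 was at -1.19, Slc14a1 at -0.98 and Cavin2 at 0.13. These genes again chose the cells, so the values at equal depth are a description too.

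Over the other genes, 8692 had a mean of at least 10 CPM. A gene was called when its log2 fold passed 1.5-fold and its 95% counting interval did not reach 0. By this rule 376 genes (4.33% of those measured) were higher and 424 (4.88%) lower in the B-ALL environment. Scaled by total UMIs alone, 282 were higher and 548 lower, so that higher calls were 34.0% of the total in place of 47.0%. The median log2 fold of all measured genes was 0.03. On the map core, 6.77% of 8536 measured genes were called higher and 6.62% lower. With at least 4 further genes, 5.90% of 8622 were called higher and 6.25% lower. Of the 376 genes called higher, 165 were also called higher in all other cells, and of the 424 called lower, 144 were called lower there, against a background of 3.98% higher and 2.79% lower among the 8768 genes measured in those cells. Genes are named by a fixed rule: the highest and lowest 10 folds, up to 4 of each gene list by size, and a few set genes.

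Of 18 transcription factors of the lineage measured, none was called higher and 1 lower, Bach1, a repressor regulated by heme, at 50.4 CPM in the B-ALL environment and 76.0 CPM in the PBS control (log2 fold -0.59). The log2 folds of the 18 ran between -0.59 and 0.56, 8 of them above 0, with a median of -0.02. That median was -0.19 at the thinned depth, -0.23 on the map core and -0.44 without cells with 3 markers of another lineage. Gata1 was at 89.8 CPM in the B-ALL environment and 103.6 in the PBS control, and Gata2 at 285.3 and 273.6 CPM. Gfi1b, a repressor needed for megakaryocyte maturation, was at 110.9 CPM in the B-ALL environment and 75.4 in the PBS control, a log2 fold of 0.56 (0.38 to 0.74) that did not reach 1.5-fold. In all other cells Gfi1b had a log2 fold of -0.22 and Gata1 of -0.80.

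Platelet receptor genes gave 3 higher and 1 lower call among 19 measured, with a median log2 fold of 0.26. Over the list's genes measured in each setting, the median turned to -0.08 at the thinned depth and -0.04 with at least 2 Pf4 UMIs. It was -0.13 with at least 4 further genes, -0.11 on the map core and -0.35 without cells with 3 markers of another lineage. Over the same 19 genes it was -0.13 with at least 4 further genes and -0.08 on the map core. Tbxa2r, the thromboxane receptor gene, was at 34.5 CPM in the B-ALL environment and 19.9 in the PBS control (log2 fold 0.79), and Gp1bb at 27.8 and 16.5 CPM (0.75). For Gp1bb the sign depended on the cells kept: without cells with 3 markers of another lineage, which left 31 control cells, its log2 fold was -1.01. Ptger3, a prostaglandin E2 receptor gene, was at 52.1 and 34.3 CPM (0.60). Fcer1g, a signaling chain shared by Fc and collagen receptors, was lower, at 52.2 CPM in the B-ALL environment and 81.2 in the PBS control.

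The folds of the receptor genes named here differed along the number of further genes. Tbxa2r had a log2 fold of 1.23 with 2 to 3 further genes, 1.26 with 4 to 5 and 0.25 with 6 to 7. In progenitors with 2 to 3 further genes, the log2 fold of Gp1bb was 2.54 (1.16 to 4.27). It rested on 29 UMIs in the B-ALL environment and 5 in the PBS control. The mean of 8.13 CPM was below the minimum set for measured genes. Itgb3 encodes the beta 3 integrin that pairs with the product of Itga2b. In the same cells its log2 fold was 1.68 (0.82 to 2.63), from 48 UMIs in the B-ALL environment and 15 in the PBS control. With 6 to 7 further genes, Gp1bb was at 37.5 CPM in the B-ALL environment and 32.1 in the PBS control, and Itgb3 at 80.1 and 77.1 CPM. Gp9, another chain of the von Willebrand factor receptor, was at 66.5 CPM in the B-ALL environment and 111.7 in the PBS control in those cells. With at least 4 further genes, 0 of the 19 receptor genes were called higher and 2 lower. No test of these differences between cells of few and many genes was possible.

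Granule and cytoskeleton genes split. Clu, which encodes the secreted chaperone clusterin, was at 55.6 CPM in the B-ALL environment and 9.42 in the PBS control (log2 fold 2.56, 2.11 to 3.04). F13a1, the A chain of clotting factor XIII, was lower, at 13.5 and 43.1 CPM, but 5 cells gave 75.8% of the 95 UMIs in the B-ALL environment, and another 5 gave 46.6% of the 206 in the PBS control. Serpine2, an inhibitor of thrombin, was at 37.6 CPM in the B-ALL environment and 73.1 in the PBS control (log2 fold -0.96, -1.19 to -0.72). Its level followed megakaryocyte genes in both groups and the difference lay at the upper end: with 6 to 7 further genes it was at 63.8 CPM in the B-ALL environment and 170.9 in the PBS control. With 2 to 3 further genes it was at 12.9 and 10.0 CPM. In all other cells its log2 fold was 0.06.

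Of 19 cytoskeleton and proplatelet genes measured, 4 were called higher and 0 lower, with a median log2 fold of 0.17. With at least 4 further genes 2 were called higher and 0 lower, with a median of 0.01. On the map core these were 2 and 0, with a median of 0.02. Myh10 (chromosome 11, 68691559 to 68816632, plus strand, GRCm38) encodes nonmuscle myosin IIB, which is switched off as megakaryocytes stop dividing and become polyploid. It was at 31.9 CPM in the B-ALL environment and 10.9 in the PBS control, a log2 fold of 1.55 (1.11 to 2.02). Of its 52 control UMIs, 44.2% came from 5 cells. With 6 to 7 further genes Myh10 was at 39.6 CPM in the B-ALL environment and 6.17 in the PBS control, and on the map core the log2 fold was 2.46. Its log2 fold was 2.22 in stem cells with Vwf (436 cells in the B-ALL environment and 51 in the PBS control) and 0.08 in all other cells. The other 3 called with all progenitors were the myosin light chain kinase gene Mylk at 17.3 and 8.58 CPM, the adaptor gene Lat at 106.8 and 70.3 CPM, and Arhgef12, which encodes a guanine nucleotide exchange factor, at 41.1 and 27.2 CPM, with the B-ALL environment first. With 6 to 7 further genes Mylk was called higher (log2 fold 0.85), and Lat (0.32) and Arhgef12 (0.23) were not called.

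**Figure D3:**
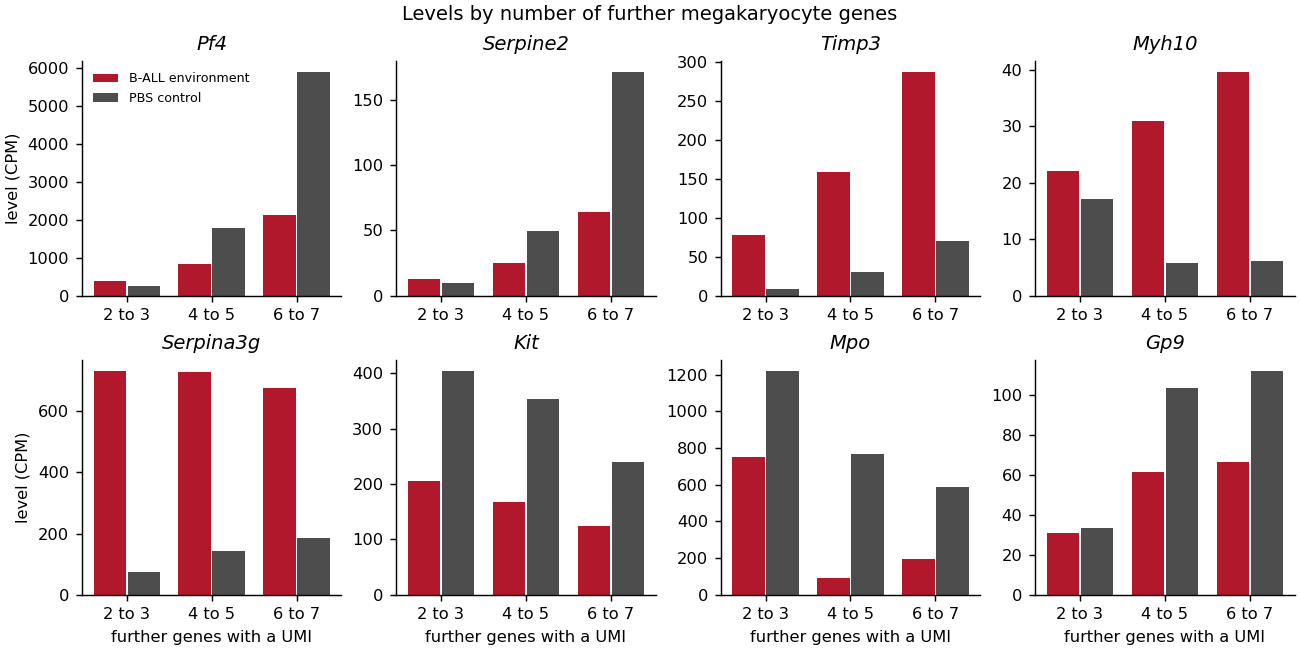
Levels (CPM) of 8 genes in progenitors with 2 to 3, 4 to 5 and 6 to 7 further megakaryocyte genes, with the B-ALL environment left of the PBS control in each pair; axes start at 0 and differ between genes. Pf4 and Serpine2 are lower in the B-ALL environment at 4 to 5 and 6 to 7 genes, Timp3 and Serpina3g are higher at every step, Myh10 at 4 to 5 and 6 to 7 (at 2 to 3 its log2 fold of 0.36 was not called), and Kit and Mpo are lower at every step.

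Cish, Socs2 and Pim2, which cytokine receptors switch on through STAT proteins, were among the 10 genes of highest fold. Of 25 genes of thrombopoietin signaling measured, 9 were called higher and 2 lower, with a median log2 fold of 0.11. Cish, a suppressor of cytokine signaling, was at 49.7 CPM (350 UMIs in 182 cells) in the B-ALL environment and 6.07 CPM (29 UMIs in 28 cells) in the PBS control. Its log2 fold was 3.03 (2.48 to 3.63). Socs2, of the same family, was at 38.9 CPM in the B-ALL environment and 3.98 in the PBS control (3.29), Pim2, a survival kinase, at 39.7 and 2.30 CPM (4.11), and Pim1 at 392.1 and 173.6 CPM (1.18). Ccnd1, cyclin D1, was lower, at 17.2 CPM in the B-ALL environment and 54.0 in the PBS control (-1.65, -1.98 to -1.34). All 5 had log2 folds of the same sign in all other cells: 3.58 for Cish, 5.17 for Socs2, 2.99 for Pim2, 1.61 for Pim1 and -1.63 for Ccnd1.

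Sequences at the start of Cish and of 2 further genes with high folds are shown for the letters that STAT dimers are known to bind, TTCNNNGAA, which read the same on both strands. The windows are RefSeq's, on GRCm38.p6, from 250 bases before to 50 after each start, and capitals mark each match. Cish has a pair of matches within the first 30 bases from its annotated start (chr9:107296659-107296688, plus strand):
Cish: TTCCTGGAAagTTCTTGGAAatctgtcaaa
For Serpina3f (chr12:104214384-104214463, plus strand) and Serpina3g (chr12:104236067-104236146, plus strand), serpins that respond to interferon gamma, 80 bases before the start are given, with 1 match each; those of Serpina3f begin 160 bases before its start:
Serpina3f: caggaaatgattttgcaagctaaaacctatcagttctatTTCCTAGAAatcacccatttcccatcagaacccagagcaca
Serpina3g: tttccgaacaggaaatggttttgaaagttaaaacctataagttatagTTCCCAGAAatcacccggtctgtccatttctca
Over all 32851 windows, 8.30% held a match. Among the 10 genes of highest fold, 7 had a window and 2 of these, Cish and Serpina3f, held a match. Among the 10 of lowest fold it was 1 of 7. Counted by window, 3 of 9 (33.3%) held a match for the highest folds and 2 of 8 (25%) for the lowest. A match describes the letters and does not show binding.

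The other genes of highest fold were near silent in control progenitors. Slfn2 (chromosome 11, 83065112 to 83070678, plus strand, GRCm38), a schlafen gene known for keeping T cells quiescent, had 508 UMIs in 204 cells in the B-ALL environment and 14 UMIs in 12 cells in the PBS control. That is 72.1 and 2.93 CPM, a log2 fold of 4.62 (3.86 to 5.50). Podxl, a sialomucin related to CD34, was at 38.4 CPM in the B-ALL environment and 2.30 in the PBS control (4.06), and Col18a1, which encodes collagen XVIII, at 28.7 and 1.68 CPM (4.10). Id1, an inhibitor of basic helix-loop-helix transcription factors, was at 41.1 and 3.98 CPM (3.37). S100a4, a calcium-binding protein gene, was at 25.5 CPM in the B-ALL environment and 3.56 in the PBS control (2.84). Stxbp6, a regulator of vesicle fusion, was at 23.7 CPM in the B-ALL environment and 1.88 in the PBS control, a log2 fold of 3.65 (2.69 to 4.81). In all other cells the log2 fold of Stxbp6 was 0.92, and in stem cells with Vwf it was 2.61.

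**Figure D4:**
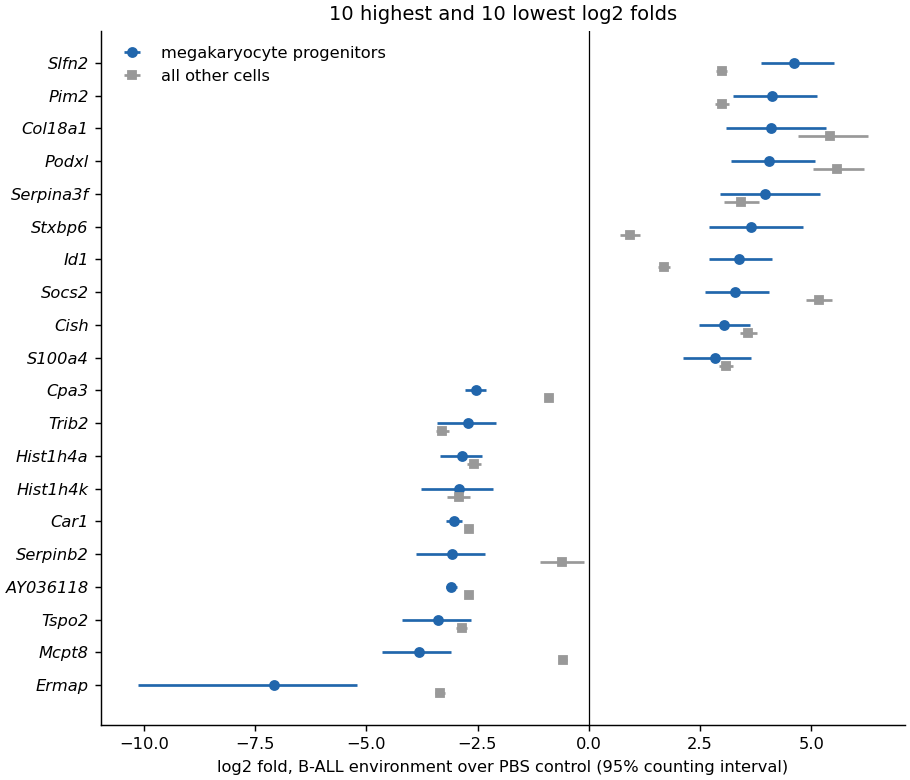
Log2 folds, B-ALL environment over PBS control, for the 10 highest and 10 lowest genes in megakaryocyte progenitors (circles) and the same genes in all other cells (squares), with 95% counting intervals. All 20 have the same sign in both sets of cells; Stxbp6 stands at 3.65 in the progenitors and 0.92 in the others, and Mcpt8 at -3.82 and -0.57.

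Among the genes of lowest fold, erythroid and basophil genes were prominent. Ermap, a gene of the red cell membrane, had 2 UMIs in the B-ALL environment and 183 in the PBS control, where 5 of 30 cells held 42.1% of them (log2 fold -7.08, -10.13 to -5.20). Its log2 fold was -3.81 with at least 4 further genes and -2.64 on the map core. Car1, carbonic anhydrase 1, was at 43.3 CPM in the B-ALL environment and 353.8 in the PBS control (-3.03), and Tspo2, an erythroid membrane gene, at 2.41 and 25.1 CPM (-3.38). The granule protease genes Mcpt8 and Cpa3 were at -3.82 and -2.54, and 82.8% of the 163 control UMIs of Mcpt8 lay in 5 cells. The control UMIs of these genes lay mostly in cells with 2 to 3 further genes: 1543 of 1690 for Car1, 168 of 183 for Ermap, 154 of 163 for Mcpt8 and 626 of 701 for Cpa3. With 6 to 7 further genes Car1 was at 8.18 CPM in the B-ALL environment and 25.9 in the PBS control, and with at least 2 Pf4 UMIs its log2 fold was -0.65. Serpinb2, plasminogen activator inhibitor 2, was spread over more cells: its 102 control UMIs lay in 68 cells, 90 of the UMIs on the map core. With 6 to 7 further genes it was at 4.43 CPM in the B-ALL environment and 48.1 in the PBS control, while in all other cells its log2 fold was -0.60. Trib2, a pseudokinase gene, was at -2.71. The histone H4 genes Hist1h4k and Hist1h4a (-2.92 and -2.86) have near-identical copies, and reads may be shared among them. AY036118, annotated as a long noncoding RNA, was at 82.6 CPM in the B-ALL environment and 700.7 in the PBS control, and on which strand reads were counted is not given in the sources used here.

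Interferon genes were split between higher and lower. Of 18 type I interferon genes measured, 3 were called higher and 3 lower, and of 16 interferon gamma genes also 3 and 3, with median log2 folds of -0.15 and -0.25. Ifitm1 was at 869.8 CPM in the B-ALL environment and 154.5 in the PBS control (log2 fold 2.49), and Ifitm3, of the same antiviral family, at 1058 and 545.2 CPM (0.96). Serpina3g was at 708.5 CPM in the B-ALL environment and 127.7 in the PBS control (2.47), and Serpina3f at 26.0 and 1.68 CPM (3.95); both families hold near-identical copies. Socs1, which shuts off interferon signaling, was at 24.4 and 8.37 CPM (1.54). The called lower genes included Tgtp2, an interferon-induced GTPase gene, at 4.68 CPM in the B-ALL environment and 15.5 in the PBS control, and Ifi27l2a at 5.39 and 18.2 CPM. Of 16 antigen presentation genes, 0 were called higher and 2 lower, H2-T23 at a log2 fold of -0.74 and the peptide transporter gene Tap2 at -0.59.

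Of 14 genes of the NF-kB response measured, 4 were called higher and 1 lower, with a median log2 fold of 0.34. With at least 4 further genes 3 were called higher and 0 lower. Nfkbia, the inhibitor of NF-kB, was at 174.4 CPM in the B-ALL environment and 80.8 in the PBS control (1.11, 0.94 to 1.28). It was at 308.5 and 81.5 CPM in progenitors with 2 to 3 further genes, and at 80.5 CPM in the B-ALL environment and 74.7 in the PBS control in those with 6 to 7. Nfkb2 was at 20.1 CPM in the B-ALL environment and 6.70 in the PBS control (1.59), and was called higher at each number of further genes. Tnfaip2, induced by tumor necrosis factor, was lower, with a log2 fold of -0.70, but of 0.050 with at least 4 further genes. The immediate early gene Egr1 ran the other way along the genes: 42.6 and 9.26 CPM with 6 to 7 further genes, but 20.1 and 18.1 CPM with 2 to 3, the B-ALL environment first. Of the 11 immediate early genes measured, 3 were called higher and 0 lower, and of 14 IL-6 and STAT3 response genes 2 were higher and 2 lower.

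Genes of growth and metabolism gave more higher than lower calls in the lists of ribosome biogenesis, glycolysis and cholesterol synthesis. Over all genes measured, 4.33% were called higher and 4.88% lower. All 26 measured genes of ribosome biogenesis had log2 folds above 0, with a median of 0.32, and 3 were called higher and 0 lower. Their median in all other cells was -0.05. Srm, which makes spermidine, was at 460.7 CPM in the B-ALL environment and 259.8 in the PBS control (0.83, 0.73 to 0.92). All 10 heat shock protein genes measured were above 0, with 1 called higher, and 6 of 17 glycolysis genes were called higher and 0 lower, among them Ldha at 1243 and 799.3 CPM. Of 22 cholesterol synthesis genes, 3 were called higher and 0 lower, with a median of 0.27. For the 74 nuclear oxidative phosphorylation genes the median was 0.01, with no call, where in all other cells it was -0.27. Of 13 mitochondrially encoded genes, 2 were called higher and 2 lower, and 11 had log2 folds above 0, with a median of 0.40. They summed to 48279 CPM in the B-ALL environment and 34478 in the PBS control. In all other cells their median was 0.35.

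For division, a median of 0.472% of a progenitor's UMIs belonged to 39 G2/M genes in the B-ALL environment and 0.291% in the PBS control. Of those 39 genes, 3 were called higher and 1 lower, with a median log2 fold of 0.25. On the map core 20 of the 39 were higher and 1 lower, with a median of 0.59. Over all genes measured there, 6.77% were higher and 6.62% lower. Ccnb1, cyclin B1, was at 107.1 CPM in the B-ALL environment and 69.1 in the PBS control (0.63). Ect2, needed for cytokinesis and silenced as megakaryocytes become polyploid, was at 14.0 and 30.8 CPM (-1.13, -1.51 to -0.75). Of its 147 control UMIs, 101 lay in cells with 2 to 3 further genes. It was called lower with 2 to 3 and with 4 to 5 further genes (-0.87 and -1.07). With 6 to 7, where each group had 13 UMIs, Ect2 was not called. For 38 S phase genes, the median log2 fold was 0.15, with 1 called higher, Rrm2, and 1 lower, Dscc1. Among the cell cycle inhibitors 1 of 10 was called higher and 0 lower. It was Cdkn1a, which encodes p21, at 18.7 CPM in the B-ALL environment and 5.44 in the PBS control (1.78, 1.17 to 2.45). Of 10 p53 targets measured, 7 had log2 folds above 0, with a median of 0.17, and 1, Cdkn1a, was called higher. The 2 called lower were Bbc3 and Sesn1: Bbc3, the death gene PUMA, was at 8.94 and 17.6 CPM (-0.98) and Sesn1 at 29.7 and 46.5 CPM (-0.65).

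**Figure D5:**
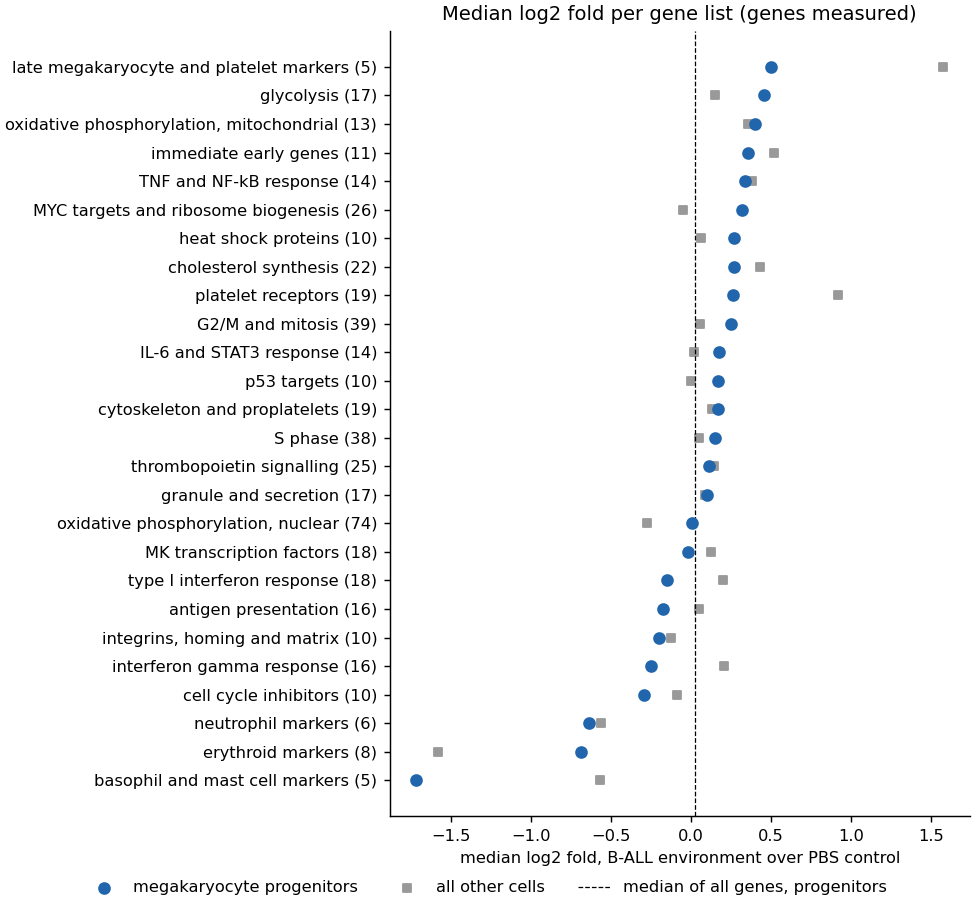
Median log2 fold, B-ALL environment over PBS control, for each gene list with at least 5 genes measured (number in brackets), in megakaryocyte progenitors (circles) and all other cells (squares); the dashed line is the median of all measured genes in the progenitors. Late megakaryocyte and platelet markers stand at 0.50 in the progenitors and 1.58 in other cells, but the 0.50 rests on 5 genes. Over the list's genes measured in each setting, the median was -0.51 at the thinned depth and -0.54 on the map core. Over the same 5 genes it was 0.17 on the map core. Ribosome biogenesis stands at 0.32 and -0.05, and basophil and mast cell markers at -1.71 and -0.57. On the map core the same basophil and mast cell genes had a median of 0.10.

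At the surface, Kit, the receptor of stem cell factor by which the cells were sorted, was at 160.9 CPM in the B-ALL environment and 335.6 in the PBS control, a log2 fold of -1.06 (-1.17 to -0.95). It was lower at every number of further genes, and in all other cells the log2 fold was -0.82. Timp3 (chromosome 10, 86300372 to 86349506, plus strand, GRCm38), an inhibitor of matrix proteases, was at 188.6 CPM in the B-ALL environment and 33.9 in the PBS control (2.47, 2.24 to 2.72). It was detected in 49.2% of progenitors in the B-ALL environment and 15.8% in the PBS control. In cells with at least 5 neutrophil genes, progenitors left out, the shares were 2.88% and 1.59%. With 6 to 7 further genes Timp3 was at 287.1 CPM in the B-ALL environment and 69.7 in the PBS control. Of 10 integrin, homing and matrix genes measured, 2 were called higher, Podxl and Timp3, and 4 lower. The lower ones included Itgal, the alpha chain of LFA-1, at 8.94 CPM in the B-ALL environment and 21.6 in the PBS control. Cd9, a platelet tetraspanin gene, was at 315.8 CPM in the B-ALL environment and 341.7 in the PBS control. Its direction differed along the number of further genes. With 2 to 3 it was at 216.2 CPM in the B-ALL environment and 108.2 in the PBS control (log2 fold 1.00). With 6 to 7 it was at 395.2 and 647.2 CPM (-0.71), and with 4 to 5 the log2 fold of -0.19 was not called.

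Markers of other lineages were mostly lower in the progenitors of the B-ALL environment, and their part in the results above was not tested. The 8 neutrophil genes summed to 1465 CPM in the B-ALL environment and 2806 in the PBS control, with 1 of the 8 at 0 in each; 0 of 6 measured were called higher and 3 lower. In all other cells they summed to 8056 and 11662 CPM. Mpo, myeloperoxidase, was at 329.7 CPM in the B-ALL environment and 899.4 in the PBS control. The 10 erythroid genes summed to 947.9 and 1342 CPM, with 4 of 8 called lower and 0 higher. Their median log2 fold was -0.69. Over the same 8 genes it was -0.14 with at least 4 further genes, with 1 called higher and 2 lower. On the map core it was -0.297, with 1 called higher and 3 lower. Monocyte genes summed to 76.3 and 151.2 CPM with 4 of 4 lower. Lymphoid-primed genes summed to 69.8 and 104.7 CPM with 2 of 4 lower. Basophil and mast cell genes summed to 70.5 and 249.8 CPM with 1 of 5 higher and 4 lower. The median log2 fold of these 5 genes was -1.71. On the map core it was 0.098, with 0 called higher and 1 lower. With at least 4 further genes it stayed negative, with 0 called higher and 2 lower. Without cells with 3 markers of another lineage, the median was 0.43 over 4 erythroid genes and 1.35 for 1 basophil and mast cell gene. B cell genes summed to 40.7 CPM in the progenitors of the B-ALL environment and 34.1 in those of the PBS control, while in all other cells they summed to 381 and 43.6 CPM. Macrophage genes summed to under 5 CPM in both groups, and T and NK cell genes to 251 and 363 CPM, nearly all of it Nkg7. The 1 stromal gene in the matrix was at 7.52 and 3.77 CPM.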

How the data were processed

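Raw UMI counts per gene and cell were used as the authors deposited them, in 1 matrix of 11764 cells and 13978 genes; the matrix sum equalled the deposited total in 100% of cells. The authors' cell table gave the group prefix and the UMAP coordinates, a score without unit, used as deposited. Per the submitters' processing notes, Cell Ranger 4, Seurat 4.0.1 and mm10 were used; how cells and genes were filtered and strand was handled is not given in the sources used here. The prefix tm was read as tumor environment. No doublets were removed here.

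The progenitors were picked by the rule in the text. The members, gene lists and comparisons were chosen with earlier results of these data known. Summed UMIs of a group were scaled with edgeR 4.0.16 (TMM) in R 4.3.3; DESeq2 1.42.0 gave size factors only. Log2 folds, B-ALL environment over PBS control, have exact conditional 95% intervals (scipy 1.17.1), levels exact Poisson and shares exact Clopper-Pearson intervals. Genes had a mean of at least 10 CPM and were none of the 16 rule genes. Thinning drew 3070 UMIs per cell without replacement (seed 1). Named genes were the 10 highest and 10 lowest folds, up to 4 per list by size, the rule genes, Kit, Cd34, Ptprc, Cd9, Gata1 and Gata2, and the genes most enriched over other cells; some genes the rule names are not reported here. The edgeR quasi-likelihood test and permutation test, planned for sample numbers per cell, could not be run. The code for folds and calls was checked on simulated counts. Genes were placed with GENCODE vM21 (GRCm38). Python 3.11.15, numpy 2.4.6, pandas 2.3.3 and matplotlib 3.10.9 were used.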

Additional observations from a re-analysis of the deposited data

Results flagged for a closer look

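In the B-ALL environment 190 cells fell below 3070 UMIs, and no PBS control cell did. Of these, 4 met the rest of the rule (2.11%, exact 95% interval 0.577 to 5.30, above the 1.58% that a count of 0 would allow), at a median depth of 2273 UMIs over the 190 cells, and 19 had a UMI of Pf4; these cells are in none of the comparisons. A pair of genes was called in opposite directions in the progenitors and in all other cells, a difference that was not tested. Csgalnact1, which starts chondroitin sulfate chains, had a log2 fold of -0.66 (23.4 CPM in the B-ALL environment and 37.1 in the PBS control) in the progenitors and 1.21 in all other cells. Gm15915 had a log2 fold of 0.83 (98.2 CPM in the B-ALL environment and 55.3 in the PBS control) in the progenitors and -1.09 in all other cells.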

How the results depend on the processing

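The ratio of the shares was 1.10 with cells thinned, 1.14 with at least 2 Pf4 UMIs and 1.25 with at least 3 further genes. It was 1.57 without the stem cell limit, 1.74 at 10000 UMIs and 6.67 without cells with 3 markers of another lineage. With at least 4 further genes it was 1.23 and on the map core 0.977; these 2 settings were chosen after seeing the data. Without a filter on low counts, 651 genes were higher and 950 lower in the B-ALL environment, with 13892 genes in place of 8692 measured, and on the map core 578 were higher. In the other settings 282 to 529 genes were higher, and over all settings but that without a filter 411 to 565 were lower. Similar totals did not mean the same genes. With cells thinned, 190 of the 376 genes called higher and 186 of the 424 called lower were called again. When cells with 3 markers of another lineage were left out, 109 and 125 were called again. Without cells with 3 markers of another lineage, Klf1 had a log2 fold of 0.092 and Gp1bb of -1.01, the opposite of the values with all progenitors; the cause was not tested, but this setting left 31 control cells. No other named gene followed through the alternatives changed sign where it had been called. Of the values of named genes under the alternatives, 244 stayed within the interval of the value with all progenitors and 98 left it without such a change of sign. Slfn2 had a log2 fold of 3.24 with cells thinned, against 4.62. The medians of 11 of 26 gene lists changed sign under at least 1 alternative. Each was taken over the list's genes measured in that setting, so the genes behind a median can differ between settings. The median of late megakaryocyte and platelet markers, 0.50, was -0.40 without a filter, -0.51 thinned and -0.23 with at least 2 Pf4 UMIs. It was -0.28 with at least 4 further genes, -0.54 on the map core and -1.01 without cells with 3 markers of another lineage. Over the 5 genes behind the 0.50 it was 0.09 with at least 4 further genes and 0.17 on the map core. The median of granule genes, 0.10, was between -0.18 and -0.02 in 6 alternatives. Over the 17 granule genes behind the 0.10 it was -0.095 with at least 4 further genes and 0.005 on the map core. Folds per cell, and those in the same mix of marker numbers, were called by size alone, with no interval. No paired analysis was possible because the cells carry no replicate number. For the same reason leaving out each replicate, the replicate block, the edgeR quasi-likelihood test and the DESeq2 Wald test were not run. Depth limits genes under about 10 CPM, and 1 pooled sample per group leaves the spread between mice unknown.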
